A study of Mus musculus with 6 samples.

Results

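The Hox cluster genes were examined in RNA sequencing of mouse T cells grown together with ID8 cells, an ovarian surface epithelial cancer line of the mouse. Their members were taken by name, as the protein-coding entries of the deposited expression table called Hoxa, Hoxb, Hoxc or Hoxd followed by a number. This gave 40 of the 54532 entries and 39 gene symbols, since Hoxd4 was listed under a pair of identifiers. The T cells were isolated from the spleens of C57BL/6 mice aged 6 to 8 weeks and were pre-activated in interleukin-2 with anti-CD3 and anti-CD28 beads. In 3 libraries (cisplatin) the ID8 cells had been pretreated with 40 µM cisplatin, and in 3 (control) with PBS. The sources used here do not say how ID8 cells were removed before RNA extraction, whether libraries of a group came from separate mice or cultures, or the sex of the mice. The p-values below therefore measure only the spread between these libraries, which may be technical.

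Hox genes encode homeodomain transcription factors that lie in 4 clusters, HoxA to HoxD. In mm10 they span chr6:52155590-52260880, chr11:96194316-96368256, chr15:102921103-103036852 and chr2:74668310-74765142. Within a cluster the paralogue number follows the order of the genes on the chromosome, and genes with the same number in different clusters are paralogues. Low numbers are used towards the head of the embryo and high numbers towards the tail, where HOXA9, HOXA10, HOXA11 and HOXA13 also pattern the female reproductive tract. In blood cells, Hoxa and Hoxb genes are known from stem and progenitor cells and are turned down as these cells mature.

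Values are given as FPKM, the reads on a gene divided by its length and by a library factor, as the authors deposited them. The reads behind each value could be rebuilt from the FPKM, and libraries held 30606569 to 32169496 reads on genes. All Hox genes together took 1531, 1600 and 1507 reads in the control libraries and 602, 599 and 515 in the cisplatin libraries. Counting error therefore sets the precision for most members. The T-cell label was checked against 25 T-cell genes, which were all measured in both groups and summed to 2136 to 2266 FPKM in control and 3356 to 3426 FPKM in cisplatin. Markers of other cells were also present. Those of ID8 cells (20 epithelial and mesothelial genes) summed to 1594 to 1672 FPKM in control and 239 to 246 FPKM in cisplatin, and those of B cells (10 genes) to 1700 to 1787 FPKM and 3638 to 3711 FPKM. In such bulk RNA, fewer cells of a type and less RNA per cell cannot be told apart.

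The members on which the results turn are Hoxd8 and Hoxd9, which fell and which carried the most Hox expression in control, and Hoxb4, which rose. Their promoters are shown as reference sequence from RefSeq (GRCm38.p6), from 250 bases before to 50 after the annotated transcription start. Windows were held for 22 of the 39 symbols. Capitals mark AGGTCA on either strand (TGACCT on the reverse), the half-site that retinoic acid receptors and other nuclear receptors bind in pairs and that is known from Hox regulatory DNA. The Hoxd8 window lies at chr2:74704365-74704664, Hoxd9 at chr2:74697513-74697812 and Hoxb4 at chr11:96318017-96318316, all on the plus strand.
Hoxd8: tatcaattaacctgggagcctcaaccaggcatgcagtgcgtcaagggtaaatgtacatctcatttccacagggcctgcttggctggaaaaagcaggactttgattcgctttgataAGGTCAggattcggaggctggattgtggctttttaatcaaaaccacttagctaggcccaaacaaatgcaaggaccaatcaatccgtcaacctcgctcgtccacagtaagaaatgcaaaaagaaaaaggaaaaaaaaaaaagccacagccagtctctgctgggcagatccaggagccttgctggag
Hoxd9: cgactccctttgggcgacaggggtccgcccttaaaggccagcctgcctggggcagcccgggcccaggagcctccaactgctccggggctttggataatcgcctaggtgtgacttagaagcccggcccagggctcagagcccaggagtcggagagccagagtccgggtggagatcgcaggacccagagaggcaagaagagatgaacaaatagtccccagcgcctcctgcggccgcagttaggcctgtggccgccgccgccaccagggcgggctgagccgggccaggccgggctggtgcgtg
Hoxb4: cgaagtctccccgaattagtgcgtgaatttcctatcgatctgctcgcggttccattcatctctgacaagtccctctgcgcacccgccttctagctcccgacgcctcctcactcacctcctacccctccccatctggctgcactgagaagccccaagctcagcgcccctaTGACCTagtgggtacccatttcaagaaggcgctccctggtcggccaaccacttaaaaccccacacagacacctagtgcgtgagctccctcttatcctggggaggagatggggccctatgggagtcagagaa
The Hoxd8 window held 1 match, starting 135 bases before the transcription start, and the Hoxb4 window held 1, starting 81 bases before it on the reverse strand. The Hoxd9 window held 0. Of all 32851 promoter windows 16.3% held at least 1 match, and of the 24 Hox windows 7 did. The same windows also differed in CG dinucleotides, of which Hoxd9 had 20, Hoxb4 14 and Hoxd8 6, against a median of 7 over all windows. One gene with the AGGTCA letters thus fell and another rose, and the matches are a description of these windows alone.

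Hox expression as a whole was lower in the cisplatin libraries, which also held less of the ID8 marker RNA given above. The summed FPKM of the 40 entries was 20.6, 21.5 and 20.2 in the control libraries and 7.42, 7.26 and 6.68 in the cisplatin libraries, a 2.92-fold lower mean. The clusters did not share this evenly. HoxD fell from 9.53 ± 0.375 to 1.26 ± 0.257 FPKM (SD, n = 3 each), 7.57-fold, while HoxA went from 4.404 ± 0.244 to 1.71 ± 0.299 and HoxC from 5.81 ± 0.248 to 2.26 ± 0.198, 2.58-fold and 2.57-fold. For these 3 clusters every cisplatin library lay below every control library. HoxB went the other way, from 1.04 ± 0.258 to 1.89 ± 0.453 FPKM, and again the groups did not overlap. The share of HoxD in all Hox expression was 45.8% ± 0.304 in control and 17.8% ± 4.29 in cisplatin, and that of HoxB 4.99% ± 1.06 and 26.5% ± 5.58. No test was run on these sums.

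**Figure D1:**
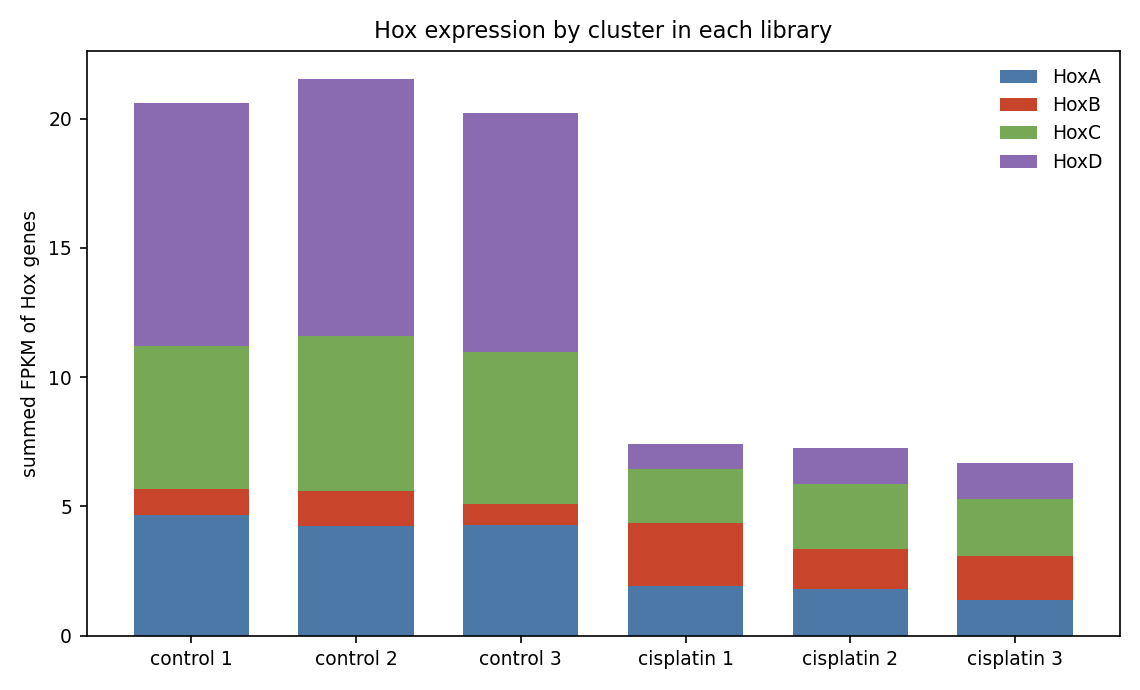
Summed FPKM of the Hox genes of each cluster (colours), stacked for each of the 6 libraries. The 3 control bars reach 20.2 to 21.5 FPKM with HoxD as their tallest part, and the 3 cisplatin bars reach 6.68 to 7.42 FPKM with a taller HoxB part.

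Gene by gene, 34 of the 40 entries had at least 1 read in some library and 6 had 0 reads in all libraries. These 6 were Hoxa11, Hoxb7, Hoxb8, Hoxd12, Hoxd13 and the Hoxd4 entry of longer span (ENSMUSG00000101174), and 0 reads allows up to 3 reads in a library, counting error only. Of the 34 with reads, 15 (44.1%) were lower in every cisplatin library than in every control library and 1 (2.94%) was higher, against 19.8% and 17.7% of all 33456 genes with any read. Some of the 15 were set apart by few or no reads. Hoxd1 had 2 reads in its lowest control library and 2 in its highest cisplatin library, and Hoxa13 had 2 and 0. For the main test the average of the 6 libraries had to reach 0.5 FPKM (limma on log2(FPKM + 0.1), Benjamini-Hochberg adjusted over 15874 genes), and 8 of the 40 entries passed it. A call needed an adjusted p under 0.05 and at least a 2-fold change. Called lower were 6, namely Hoxd9, Hoxd8, Hoxa10, Hoxc6, Hoxa7 and Hoxc13, and called higher was 1, Hoxb4, where 12.8% of all tested genes were called lower and 4.11% higher. Hoxa7 and Hoxa10 passed the expression filter only through their control libraries, so these counts are given without weight.

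With no expression filter, 10 of the 34 members with reads (29.4%) were called lower and 1 (2.94%) higher by limma, against 7.31% and 2.26% of 33456 genes. Their median log2 fold change was -0.47, and that of all genes was -0.01. Of members with 0 cisplatin reads, 3 had a control mean above a floor of 3 reads per library. With these 3 set to their fold over that floor, the median of the members was -0.42. Limma with voom weights on the rebuilt reads, over genes with at least 10 reads in at least 3 libraries, also called 10 lower and 1 higher of 16 members tested, against 13.1% and 6.08% of 18541 genes. All 10 were shared by both procedures. By cluster these 10 were 4 of HoxA, 4 of HoxC and 2 of HoxD, and 0 of HoxB. Voom had tested 7, 6, 2 and 1 members of these clusters, and the fit with no filter 10, 9, 7 and 8. The single HoxB member tested by voom was Hoxb4, so the clusters cannot be compared by these counts.

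**Figure D2:**
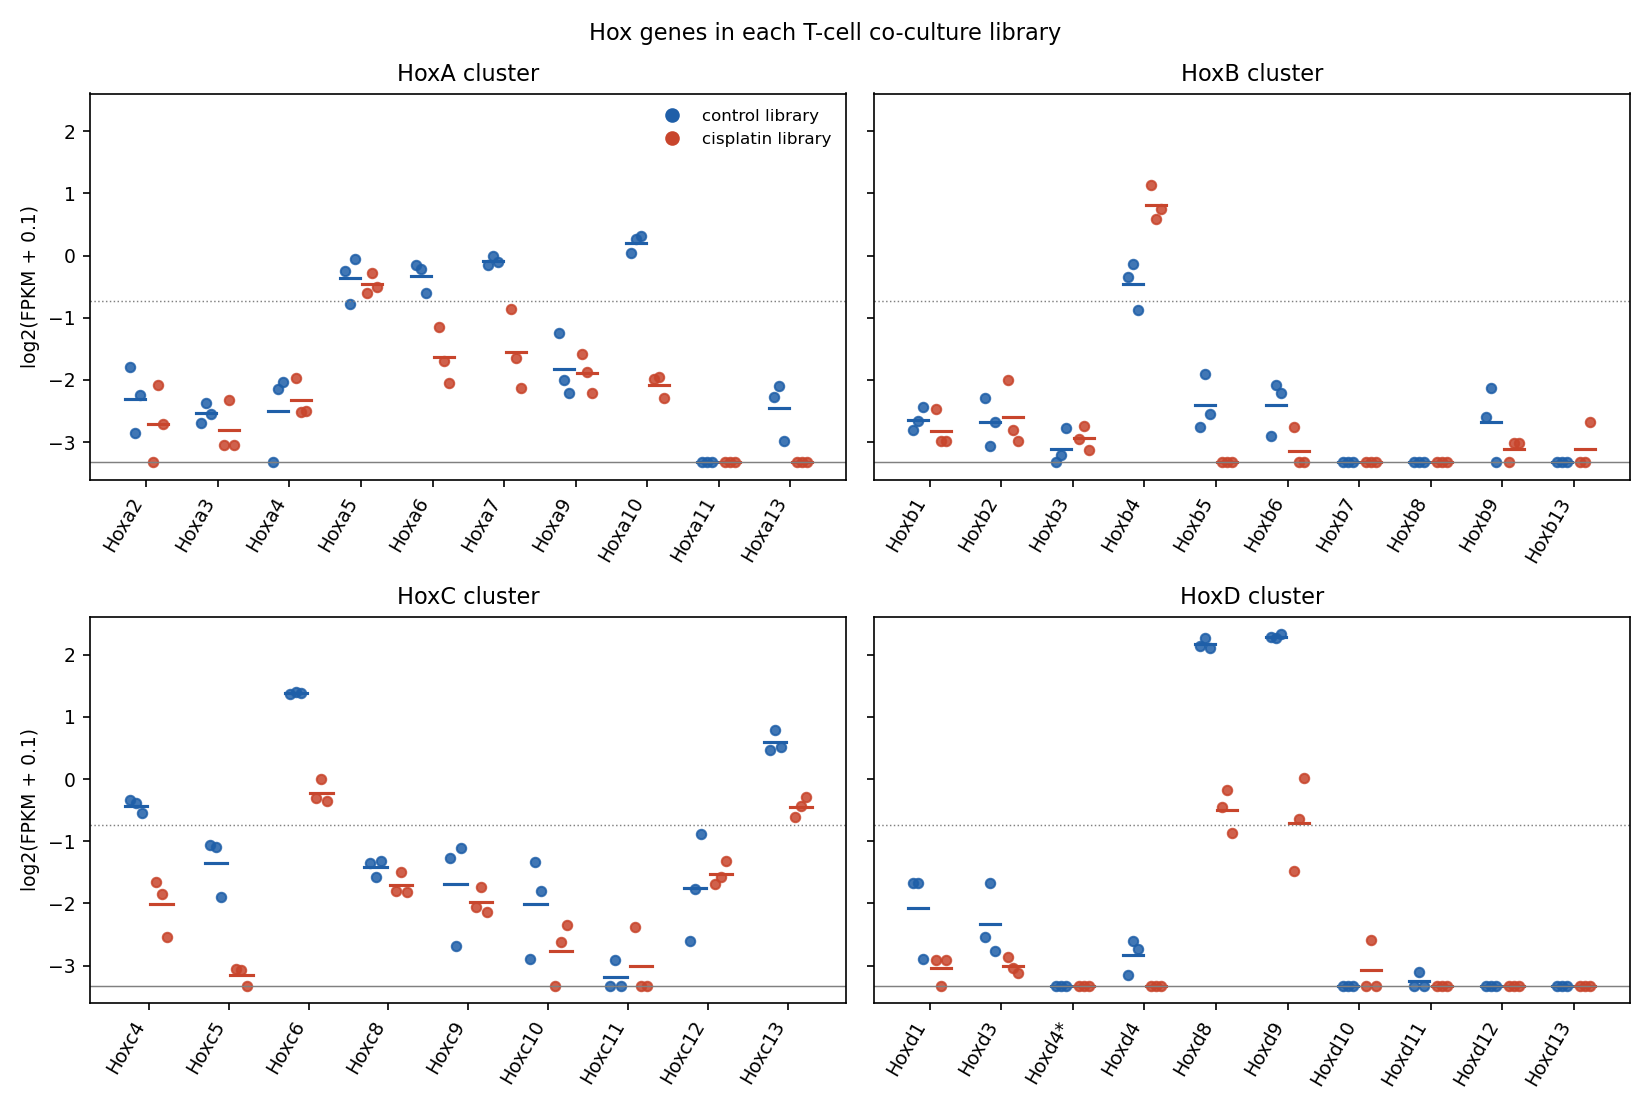
Level of the Hox entries named in the text in each library, on the log2(FPKM + 0.1) scale, by cluster and in order of paralogue number. Points are libraries, short bars are group means, the dotted line is 0.5 FPKM and the solid line 0 FPKM. The starred Hoxd4 is ENSMUSG00000101174. Hoxd8, Hoxd9 and Hoxc6 stand highest in control and drop in cisplatin, and Hoxb4 is the highest member in cisplatin.

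HoxD expression came almost wholly from a pair of adjacent genes. Hoxd9 (ENSMUSG00000043342, chr2:74697727-74700208 in mm10), which acts in limb and axial patterning, was at 4.77, 4.70 and 4.91 FPKM in the control libraries and 0.260, 0.537 and 0.910 FPKM in the cisplatin libraries. The groups were far apart, although the cisplatin libraries spread more than the control ones. Its log2 fold change was -2.99 (SE 0.35, limma adjusted p = 0.000411). Hoxd8 (ENSMUSG00000027102, chr2:74704615-74707933), its neighbour in the cluster, stood at 4.32, 4.74 and 4.19 FPKM against 0.631, 0.781 and 0.450. No cisplatin library came near a control library, and the log2 fold change was -2.67 (SE 0.19, limma adjusted p = 3.38e-05). The pair took 2028 of the 2108 HoxD reads in control and 286 of 304 in cisplatin. On the linear scale the means were 8.43-fold and 7.12-fold lower. Both calls were kept under each alternative in which the genes were tested.

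The rest of HoxD was near the floor of counting. Hoxd3 had 9, 27 and 6 reads in control and 5, 3 and 2 in cisplatin, and Hoxd1 12, 12 and 2 against 2, 0 and 2. The Hoxd4 entry of shorter span (ENSMUSG00000115956) had 10 reads over the control libraries and 0 in cisplatin. Its control mean was 1.198-fold above a floor of 3 reads per library, and it was not called with no filter (limma adjusted p = 0.109). Hoxd10 and Hoxd11 had 4 and 2 reads in all. On the annotation, Hoxd3 shares its strand and span with both Hoxd4 entries, so that reads could be split between them. The antisense RNA Hoxd3os1, which overlaps Hoxd8 on the other strand, was chosen after its values were seen. It had 55, 53 and 62 reads in control and 6, 13 and 12 in cisplatin, a voom log2 fold change of -2.49 (limma adjusted p = 0.000111). Whether reads were counted by strand is not given in the sources used here, so Hoxd8 and Hoxd3os1 cannot be fully told apart. Hoxd9 has no overlapping entry.

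In HoxA, 2 of 3 tested members were called lower. Hoxa10 (ENSMUSG00000000938, chr6:52231197-52240854, minus strand), a gene of uterine and oviduct patterning that also acts in myeloid progenitors, was at 0.927, 1.10 and 1.15 FPKM in control and 0.151, 0.157 and 0.104 FPKM in cisplatin. The groups did not overlap and the log2 fold change was -2.29 (SE 0.32, limma adjusted p = 0.000921). Hoxa7 (ENSMUSG00000038236) was at 0.799, 0.893 and 0.827 FPKM against 0.451, 0.220 and 0.129, again without overlap, with a log2 fold change of -1.45 (SE 0.40, limma adjusted p = 0.0197). Leaving out cisplatin library 2 or any single control library took the Hoxa7 call away, with limma adjusted p of at most 0.0617. Hoxa5 (ENSMUSG00000038253), a gene of thoracic patterning and lung development, was at 0.745, 0.480 and 0.868 FPKM in control and 0.560, 0.723 and 0.608 FPKM in cisplatin. Here the groups overlapped. Its log2 difference was -0.10 with a 95% interval from -0.78 to 0.58 (limma adjusted p = 0.786). That interval reaches neither the Hoxa10 nor the Hoxa7 estimate, but it overlaps the 95% interval of Hoxa7, from -2.42 to -0.49. Differences between these members were not tested. Centred on the T-cell genes, the Hoxa5 difference was -0.66 (limma adjusted p = 0.0758).

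Members of HoxA under the expression filter were read from their counts. Hoxa6 had 21, 20 and 15 reads in control and 10, 6 and 4 in cisplatin, with log2 fold changes of -1.52 with voom and -1.31 on the log2(FPKM + 0.1) scale with no filter (limma adjusted p = 0.0398 and 0.0371). It was below control in every cisplatin library. Hoxa9, the best known Hox gene of blood progenitors and of leukaemias with MLL fusions, did not share this. It had 54, 25 and 20 reads in control and 42, 32 and 21 in cisplatin, and its voom log2 difference was 0.00 with an SE of 0.44 (limma adjusted p = 0.994). Hoxa3 had 40 reads in control and 28 in cisplatin, Hoxa2 18 and 11, and Hoxa4 13 and 16, all overlapping between groups. Hoxa13, the last gene of the cluster, had 8, 10 and 2 reads in control and 0 in the cisplatin libraries. Its control mean was 2.41-fold above a floor of 3 reads per library, with counting error in control left aside. It was not called with no filter (limma adjusted p = 0.0561). The entries Hoxa2 to Hoxa6 share strand and span with each other or with the entry Gm28308, and the way reads on several genes were counted is not given in the sources used here.

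HoxC had 2 called genes. Hoxc6 (ENSMUSG00000001661, chr15:102998257-103011881), a gene of thoracic patterning, was at 2.48, 2.55 and 2.504 FPKM in control and 0.706, 0.902 and 0.679 FPKM in cisplatin. The libraries of each group lay close together and far from the other group, and the log2 fold change was -1.61 (SE 0.15, limma adjusted p = 0.000120). Hoxc13 (ENSMUSG00000001655, chr15:102921103-102928814), known for its part in hair and nail keratins, was at 1.29, 1.63 and 1.32 FPKM against 0.552, 0.638 and 0.715. It passed the fold threshold narrowly, with a log2 fold change of -1.04 (SE 0.19, limma adjusted p = 0.00335). Leaving out cisplatin library 1 or control library 2 left it just under that threshold, at -0.96 and -0.94.

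Of the less expressed HoxC genes, Hoxc4 had 53, 51 and 46 reads in control and 18, 15 and 6 in cisplatin. Its log2 fold change was -2.06 with voom (limma adjusted p = 0.000756) and -1.59 with no filter (adjusted p = 0.0169). Hoxc5 had 35, 34 and 16 reads against 2, 2 and 0, and was called lower by both (limma adjusted p = 0.000145 and 0.00760), though its entry spans Hoxc6, Hoxc8, Hoxc9 and Hoxc10 on the same strand. Other genes of the cluster were not called. Hoxc8 had 25, 20 and 26 reads in control and 17, 24 and 17 in cisplatin, and Hoxc9 23, 4 and 27 against 11, 16 and 10. Their groups overlapped, with voom log2 differences of -0.32 (SE 0.45) and -0.21 (SE 0.66), neither past the test. Hoxc10 had 30 reads in control and 10 in cisplatin, Hoxc12 22 and 25, and Hoxc11 2 and 6.

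HoxB held the single member that was called higher. Hoxb4 (ENSMUSG00000038692, chr11:96318267-96321638), best known for expanding blood stem cells when overexpressed, was at 0.688, 0.806 and 0.444 FPKM in control and 2.10, 1.40 and 1.58 FPKM in cisplatin. All cisplatin libraries were above all control libraries. The mean was 2.62-fold higher and the log2 fold change was 1.28 (SE 0.26, limma adjusted p = 0.00539), from 53, 62 and 35 reads in control and 174, 119 and 131 in cisplatin. No other entry overlaps Hoxb4 on the annotation. When values were centred on the 25 T-cell genes, which lowers every log2 fold change by 0.56, Hoxb4 kept its direction at 0.71 (limma adjusted p = 0.0483) and was no longer 2-fold.

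Without Hoxb4 the HoxB cluster was close to silent in both groups and did not rise. Its other 9 genes summed to 0.395 ± 0.113 FPKM in control and 0.199 ± 0.0934 in cisplatin (SD, n = 3 each). Hoxb5 had 4, 14 and 6 reads in control and 0 in the cisplatin libraries. Its control mean was 2.89-fold above a floor of 3 reads per library, with counting error in control left aside. With no filter its log2 fold change of -0.92 (limma adjusted p = 0.0426) fell short of a call. Hoxb6 had 17 reads in control and 3 in cisplatin, and Hoxb9 15 and 4. Hoxb2 had 19 and 25, Hoxb3 7 and 13 and Hoxb1 13 and 10. Hoxb13 had 4 reads, all in a single cisplatin library. Except for Hoxb5, these groups overlapped.

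Paralogues were also set side by side across clusters. In group 6, Hoxa6 and Hoxc6 fell and Hoxb6 had 17 reads in control and 3 in cisplatin, with overlapping groups. In group 4, Hoxb4 rose while Hoxc4 fell. In group 9, Hoxd9 fell 8.43-fold in mean while Hoxa9 overlapped between groups, and in group 8 Hoxd8 fell while Hoxc8 overlapped. Summed over clusters, group 4 took 323 reads in control and 479 in cisplatin and group 6 took 621 and 203, whereas groups 8 and 9 took 1170 and 1097 reads in control and 225 and 255 in cisplatin. Differences between paralogues were not tested.

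**Figure D3:**
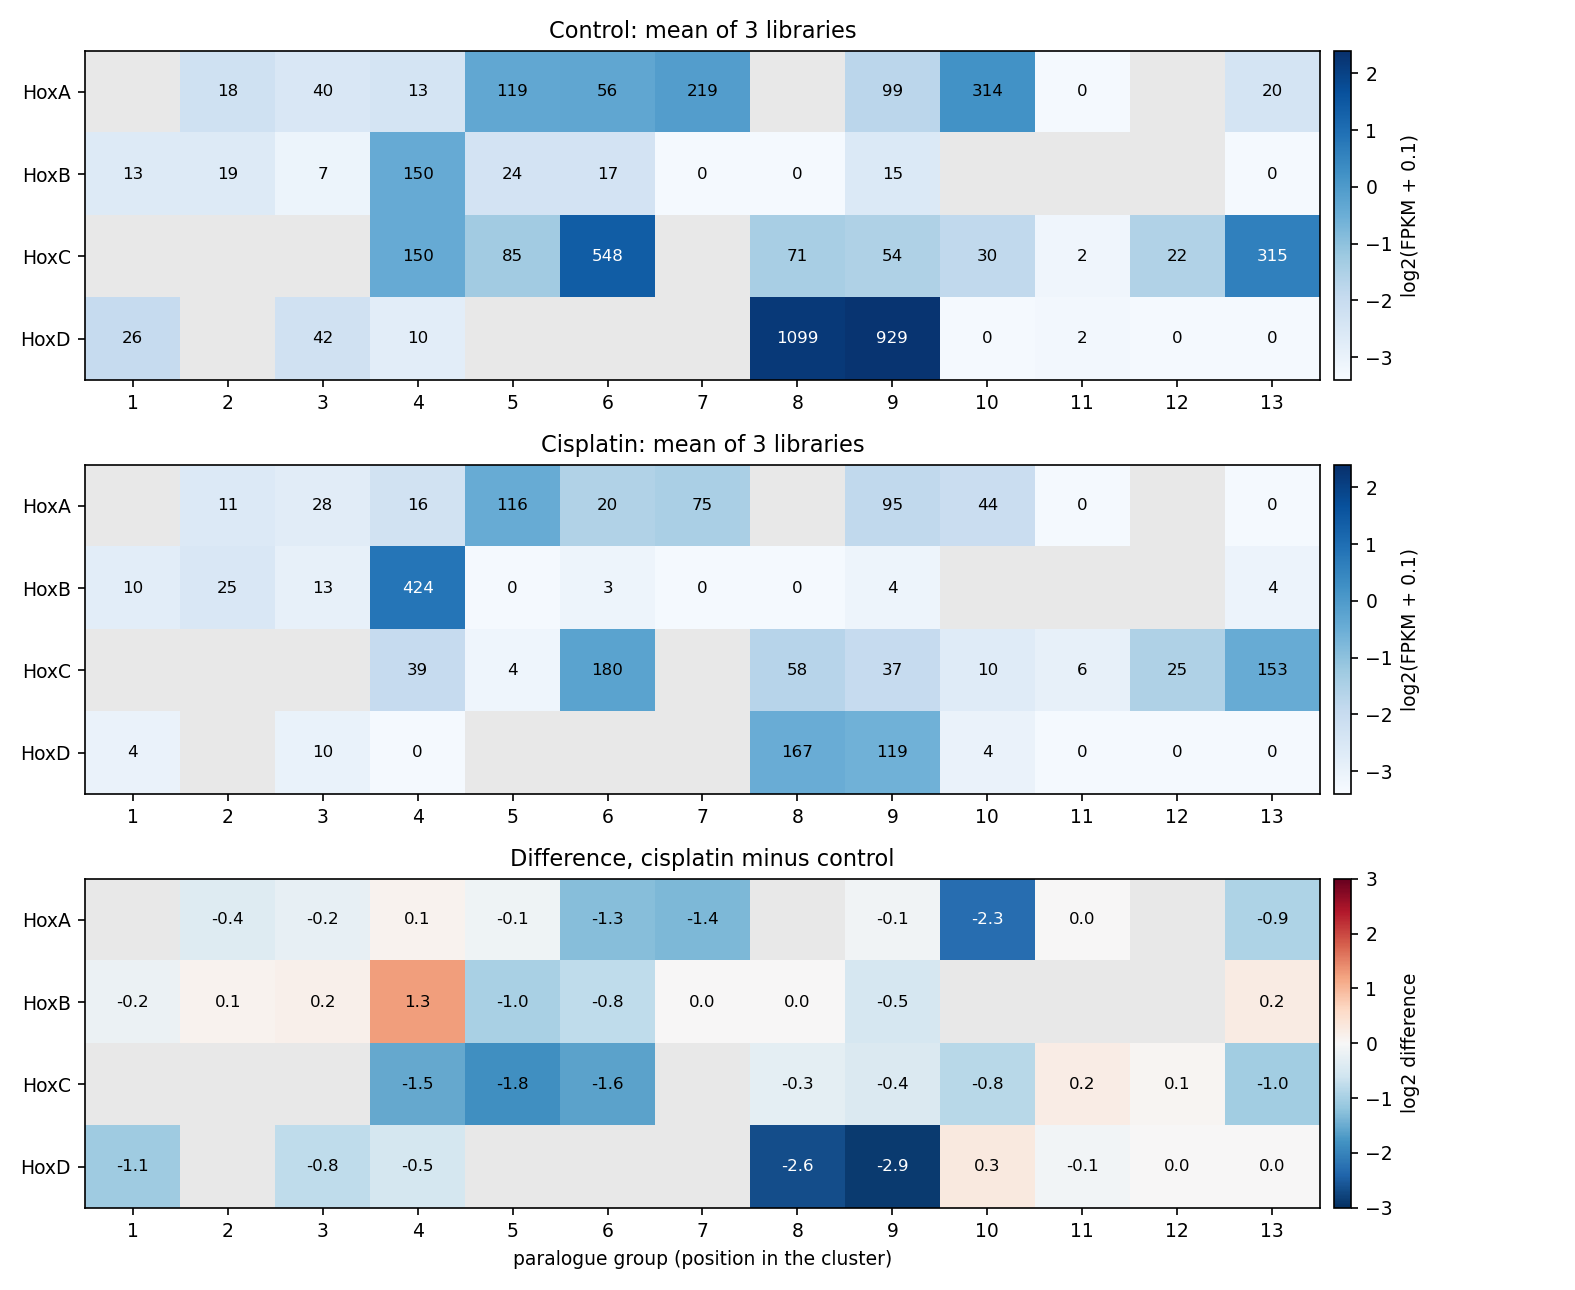
The 4 clusters (rows) against paralogue group (columns), grey where no gene is shown, with ENSMUSG00000115956 standing for Hoxd4. The upper panels show the mean level of each group on the log2(FPKM + 0.1) scale as colour and the reads summed over its 3 libraries as numbers, and the lower panel shows the difference of those levels. The darkest control cells are Hoxd8 and Hoxd9 (1099 and 929 reads) and the darkest cisplatin cell is Hoxb4 (424 reads).

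The DNA around the clusters was then examined for genes that moved with them. Inside the clusters or within 20 kb of their ends lay 53 other entries, mostly non-coding RNAs, of which 25 had any read and 5 a mean of at least 0.5 FPKM. Of these 5, the antisense RNA Gm15050 of HoxA was at 0.759 ± 0.305 FPKM in control and 0.427 ± 0.199 in cisplatin (limma adjusted p = 0.200), and the pseudogene Gm11539 of HoxB at 1.38 ± 0.498 and 1.61 ± 0.188 (adjusted p = 0.423). The small RNAs Gm27861 (adjusted p = 0.354) and Gm27477 (adjusted p = 0.274) did not pass either. The last, the microRNA precursor Mir615 inside the Hoxc5 span, was called lower on 10 control reads and 0 cisplatin reads. Under the filter, and chosen after their values were seen, a pair of entries inside HoxD also had fewer reads in cisplatin. Gm28230 had 18, 14 and 10 reads in control and 0, 1 and 0 in cisplatin, and Haglr, a non-coding RNA of HoxD, 16, 9 and 16 against 0, 2 and 0, and limma called both lower with no filter.

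The 3 nearest other protein-coding genes on each side of each cluster were also compared. Of these 24 genes 20 were tested, and 1 was called lower and 0 higher, against 12.8% and 4.11% of all tested genes. By adjusted p alone 12 were lower and 2 higher (29.0% and 27.5% of all tested genes). Their log2 fold changes ran from -1.24 to 0.73 with a median of -0.21. Snx10, a sorting nexin beyond HoxA, was the called gene, at 9.06 ± 0.718 FPKM in control and 3.76 ± 0.126 in cisplatin (log2 fold change -1.24, limma adjusted p = 1.29e-05). Beside HoxD, Lnpk, an endoplasmic reticulum junction protein, differed by -0.42 (adjusted p = 0.0179) and Mtx2, a mitochondrial import protein, by -0.51 (adjusted p = 0.00101). They lie 88.9 and 60.7 kb from the cluster, and both estimates are smaller than those of Hoxd8 and Hoxd9. Beside HoxB, the T-cell adaptor Skap1 rose by 0.43 (adjusted p = 0.000345), a rise that turns to a fall when centred on the T-cell genes. Evx1 and Evx2, homeobox genes at the ends of HoxA and HoxD, had 0 reads in all libraries.

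**Figure D4:**
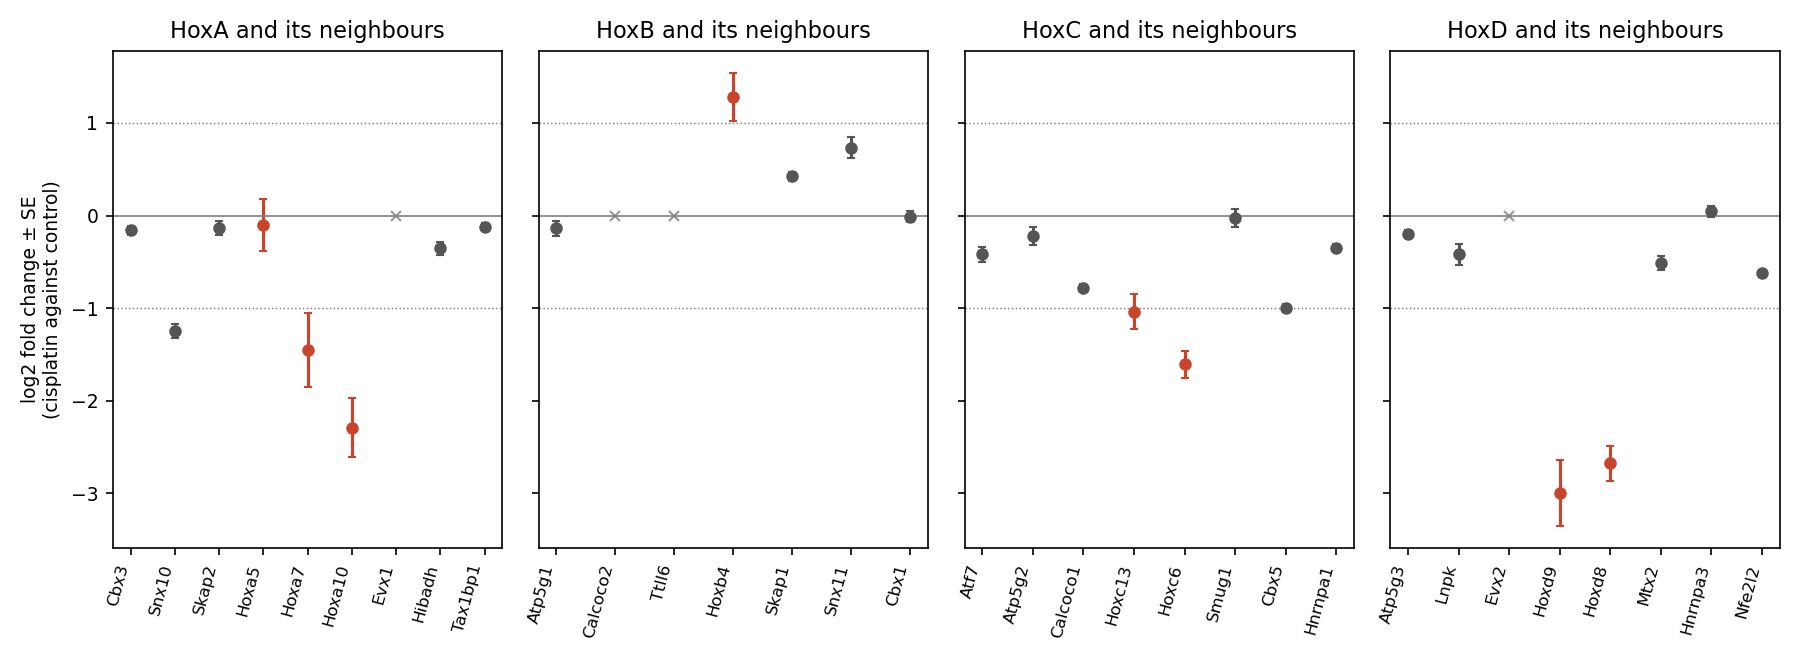
Log2 fold change (cisplatin against control, log2(FPKM + 0.1) scale, limma, with SE) of the tested Hox genes (red) and of the 3 nearest other protein-coding genes on each side (grey), in chromosomal order. Crosses mark genes with too little expression to test. The neighbours lie between -1.24 and 0.73, and Hoxd8, Hoxd9 and Hoxa10 lie below -2.

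HOX proteins bind DNA together with the TALE homeodomain proteins of the PBX, MEIS and PKNOX (PREP) families. Of 9 such genes 8 were tested, and 3 were called lower and 0 higher, against 12.8% and 4.11% of all tested genes. Meis2 and Meis1 fell, with log2 fold changes of -2.90 and -1.41 (limma adjusted p = 5.43e-05 and 0.000898). Both passed the expression filter only through their control libraries. The more abundant cofactors behaved differently. Pknox1 went from 6.55 to 9.37 FPKM and Meis3 from 5.08 to 6.38 FPKM (limma adjusted p = 0.000449 and 0.00237), rises that turn to falls when centred on the T-cell genes, and Pbx2 was at 19.96 and 21.9 FPKM (adjusted p = 0.0616). The median log2 fold change of the 8 was -0.44, against 0.03 over all tested genes.

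Regulators of Hox chromatin mostly stayed within 2-fold. Of 9 Trithorax and MLL genes, which keep Hox genes active, 1 was called lower and 0 higher, against 12.8% and 4.11% of all tested genes. The called gene was Kdm6b, an H3K27 demethylase, which fell from 16.7 ± 0.464 to 5.70 ± 0.249 FPKM (log2 fold change -1.53, limma adjusted p = 9.91e-07). Kmt2a, the gene for MLL1, rose from 38.4 ± 1.88 to 65.5 ± 2.42 FPKM (log2 fold change 0.77, limma adjusted p = 1.62e-05) and Kmt2b by 0.45 on the log2 scale (adjusted p = 0.000305), of which the latter turns to a fall when centred on the T-cell genes. Of 15 Polycomb genes, which keep Hox genes silent, 0 were called by limma. By adjusted p alone 3 were lower and 4 higher, against 29.0% and 27.5% of all tested genes. Among the Polycomb genes, Cbx7 rose by 0.64 and Ezh1 fell by 0.55 on the log2 scale (limma adjusted p = 6.09e-06 and 6.76e-05). Suz12 was at 30.7 and 32.96 FPKM (adjusted p = 0.0606).

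Retinoic acid and CDX proteins act upstream of Hox genes in the embryo. Of 18 such genes 5 passed the expression filter and 0 were called in the main test, where 12.8% of all tested genes were called lower and 4.11% higher. By adjusted p alone 3 were lower and 1 higher, against 29.0% and 27.5% of all tested genes. The receptor genes Rara and Rarg were just short of 2-fold, at 22.9 and 11.6 FPKM and 11.8 and 6.06 FPKM in control and cisplatin (log2 fold changes -0.98 and -0.95, limma adjusted p = 5.70e-06 and 2.03e-05), and Rxrb was at 29.0 and 31.1 FPKM (adjusted p = 0.123). The median of the 5 was -0.94. Genes under the filter, named after their values were seen, went both ways. Rarb was lower and Crabp2 higher with voom (log2 fold changes -2.57 and 3.75, limma adjusted p = 9.35e-06 and 0.000663), and both were also called with no filter. Cyp26b1 was called lower and Stra6 higher by voom alone (-1.48 and 1.18).

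A set of 15 transcription factors and receptors of the coelomic epithelium and reproductive tract, the tissue layer from which the ovarian surface arises, was also compared. Of these 7 were tested and 7 were called lower, against 12.8% of all tested genes. The median log2 fold change of the 7 was -2.44, though Nr2f2 and Tbx18 passed the expression filter only through their control libraries. Wt1, the Wilms tumour factor of mesothelium, fell from 48.0 ± 1.31 to 4.97 ± 0.469 FPKM, Gata4 from 30.8 ± 1.73 to 2.66 ± 0.276, and Amhr2, the receptor of anti-Müllerian hormone, from 21.9 ± 1.02 to 1.85 ± 0.0703 (log2 fold changes -3.25, -3.49 and -3.49, limma adjusted p = 2.14e-07, 3.26e-07 and 1.09e-07). Gata6, Nr5a1, Nr2f2 and Tbx18 had log2 fold changes of -2.44, -1.79, -1.63 and -2.05. These lists were drawn up with earlier results of the data known.

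The markers of other cells were set beside the Hox genes. All of the 20 ID8 markers had reads, 14 were tested, 13 were called lower and 0 higher, and their median log2 fold change was -2.41. Their most abundant genes were Krt19, an epithelial keratin, at 646 ± 18.1 FPKM in control and 52.9 ± 1.46 in cisplatin, and Sparc, a matrix protein, at 202 ± 4.27 and 27.8 ± 1.14. The summed level of these markers was 6.79-fold lower in cisplatin, that of the Hox genes without Hoxb4 3.71-fold and that of HoxD 7.57-fold. The tested falling members lay between -2.99 and -1.04. The part of the ID8 markers in the fall of the Hox genes was not tested.

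Other lists moved by less or upwards. Of the 25 T-cell genes 0 were called, where 12.8% of all tested genes were called lower and 4.11% higher. By adjusted p 24 were higher and 0 lower, against 27.5% and 29.0% of all tested genes. The median log2 fold change of the T-cell list was 0.59. Centring on this list brings that median to 0.03 by construction. Tcf7 and Trbc2, its most abundant genes, rose by 0.66 and 0.76 on the log2 scale. The limma interval of Hoxb4, of the kind given for Hoxa5, ran from 0.653 to 1.90 and contains both values. The differences of Tcf7 and Trbc2 from Hoxb4 were not tested. B-cell genes were higher by adjusted p in 10 of 10, against 27.5% of all tested genes, and 1 was called higher, against 4.11%. Their median was 0.60, or 0.04 centred on the T-cell genes. Ighm was at 1433 ± 38.0 and 3220 ± 46.7 FPKM and Cd79a at 92.6 ± 4.77 and 121 ± 7.66. Of 12 myeloid genes 10 were tested and 6 were called higher (median 1.24), against 4.11% of all tested genes. Lyz2, a lysozyme of macrophages and neutrophils, rose from 30.8 ± 1.81 to 89.7 ± 9.31 FPKM, and Cd68 was at 24.1 and 24.2 FPKM. Summed myeloid markers ran from 77.8 to 81.9 FPKM in control and from 159 to 181 FPKM in cisplatin. The rise of Hoxb4 went with these gains, and their part in it was not tested.

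Blood progenitor markers, which accompany Hoxb4 and Hoxa9 in stem cells, summed to 23.1 to 24.3 FPKM in control and 15.5 to 16.2 FPKM in cisplatin. Of 8 such genes 6 were tested, and 2 were called lower and 0 higher, against 12.8% and 4.11% of all tested genes. Procr, which was called, fell from 10.4 ± 0.867 to 4.65 ± 0.137 FPKM. Kit went from 8.03 ± 0.211 to 4.84 ± 0.293 FPKM, less than 2-fold, and was not called. Both moved opposite to Hoxb4. By adjusted p alone 3 of the 6 were lower and 2 higher, against 29.0% and 27.5% of all tested genes. The 2 higher genes were Gata2 and Flt3 (log2 fold changes 0.94 and 0.50, limma adjusted p = 0.0109 and 0.00807), named after their values were seen. The rise of Flt3 turns to a fall when centred on the T-cell genes. Fibroblast markers summed to 41.5 to 42.8 FPKM in control and 9.54 to 9.65 FPKM in cisplatin, nearly all of it Dcn, a matrix proteoglycan, at 39.2 and 7.51 FPKM. Endothelial markers summed to 15.6 to 16.2 and 21.4 to 22.0 FPKM, with log2 fold changes of 0.62 for Pecam1 and -1.81 for Tek.

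Other homeobox genes gave a last comparison. The table assigned 194 entries outside the 4 clusters to the Homeobox family, of which 72 had 0 reads. Of the 29 tested, 8 were called lower and 0 higher, against 12.8% and 4.11% of all tested genes. The median log2 fold change of the 29 was -0.07. The 8 called genes included Meis1, Meis2, Lhx6, Irx5 and Zfhx3. These passed the expression filter only through their control libraries, so the count is given without weight. The difference between the other homeobox genes and the Hox genes was not tested.

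**Figure D5:**
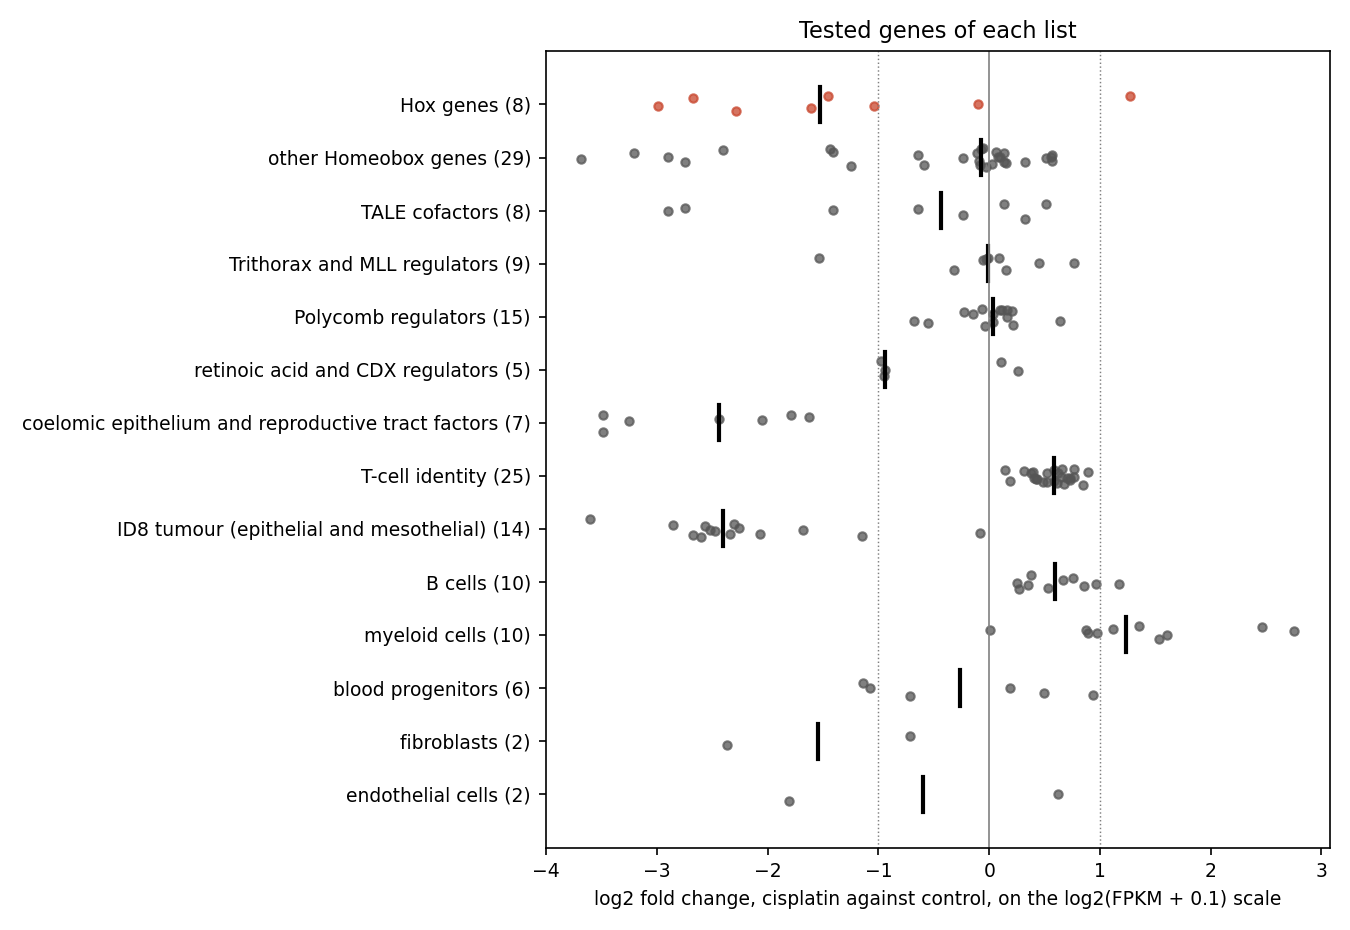
Log2 fold change (cisplatin against control, log2(FPKM + 0.1) scale) of each tested gene of the Hox clusters (red) and of the other lists (grey), with the number tested in brackets and the median as a black bar. Dotted lines mark 2-fold. Most tested Hox genes lie left of -1, as do 13 of 14 ID8 markers and the 7 coelomic epithelium factors, and Hoxb4 lies at 1.28.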

How the data were processed

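RNA of 3 cisplatin and 3 control T-cell co-cultures was sequenced from poly-A libraries. The authors deposited FPKM values for 54532 genes. The labels' processing notes name fastp, HISAT2 2.0.5, featureCounts 1.5.0-p3 and mm10, whereas the study's methods name LifeScope for alignment and counting. Dividing FPKM times gene length by each library's step gave whole reads for 100% of values within 0.1. The table held 0 further sample columns. Groups came from the sample labels.

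Tests used log2(FPKM + 0.1), limma 3.58.1 (R 4.3.3; lmFit, eBayes with trend), a mean of at least 0.5 FPKM and Benjamini-Hochberg adjustment over all tested genes, and the steps were checked on simulated data. The pseudocount understates changes of low genes. Folds against 0 reads used a floor of 3 reads per library. Named were the Hox genes, expressed neighbours, and the called and most abundant genes of each list. The members and lists were chosen with earlier results of these data known. Some results are not reported here. Tables and plots used python 3.11.15, pandas 2.3.3 and matplotlib 3.10.9. Alternatives were other pseudocounts, filters and scalings, voom, a replicate block and leaving out each library.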

Additional observations from a re-analysis of the deposited data

How the results depend on the processing

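Over 15874 genes, 2034 were called lower and 653 higher. A minimum of 5 FPKM left 903 and 242 with no Hox gene tested, centring on the T-cell genes gave 3643 and 146 (median of all genes -0.53), quantile normalization moved that median to 0.16, a pseudocount of 1 gave 311 higher, voom 1127 higher and protein-coding genes alone 255 higher. Of Hox genes, 6 were called lower and 1 higher. A pseudocount of 1 left 2 lower and 0 higher, since it shrinks low genes, and centring on the T-cell genes 0 higher, with Hoxb4 at 0.71 in both and adjusted p of 0.00455 and 0.0483. With no filter, and with voom, 10 were lower. Quantile normalization took the Hoxc13 call, at -0.87. The Hoxa5 difference turned to 0.061 with quantile normalization, and leaving out 1 library in turn moved it between -0.31 and 0.055, the latter without control library 3, and centring on the T-cell genes gave -0.66 (adjusted p = 0.0758), with no such value past the test. Leaving out 1 library in turn gave 4 to 6 Hox genes lower and 1 higher, and 1963 to 2045 genes lower and 579 to 692 higher in all. Neither labels nor methods say that equal replicate numbers share a mouse, and same-numbered libraries did not deviate together (correlations 0.023, -0.063 and -0.021), so the replicate block has no pairing behind it. With it, 2011 genes were lower and 651 higher, and 6 and 1 Hox genes.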
